A study of Mus musculus with 9 samples.

Results

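The liver is the main store of vitamin A and the place where much of its active form, retinoic acid, is made and destroyed. Retinol leaves the liver on a carrier protein, is stored there as retinyl ester, mainly in stellate cells, and is oxidised through retinal to retinoic acid. Retinoic acid binds nuclear receptors that act on response elements in DNA, and one of their classic targets is Cyp26a1, the cytochrome P450 that hydroxylates retinoic acid and so clears it. In these livers Cyp26a1 was 22.5-fold lower in STAM-NON than in Normal mice and 11.7-fold lower in STAM-INS than in Normal mice.

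The genes described are Cyp26a1 and 8 further genes of retinoid metabolism: Cyp26b1, Lrat, Rbp4, Aldh1a1, Aldh1a2, Dhrs3, Rarb and Rdh16. They were found through the RefSeq accession given for each array probe, which gave 10 probes for the 9 genes, out of 55681 probes and 20972 gene symbols on the array. Rarb had a pair of probes and each other gene had 1. All 9 genes passed the filter on dim probes, as did 13386 genes in all, with 1 probe kept per gene. These genes were chosen by a rule that knew the low values of Cyp26a1 in STAM-NON against Normal liver, so their differences from Normal mice are given as a description, without p, and the number of them called is printed below but not read as a test. Differences between STAM-INS and STAM-NON mice were tested, although that comparison shares the STAM-NON arrays.

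Liver RNA of 9 male mice, 20 weeks old, was hybridised to 1-colour arrays, with 1 mouse per array and 3 mice in each of 3 groups. STAM-NON mice, of the strain given as C57B/6 J, received streptozotocin, which destroys insulin-secreting cells and can itself damage DNA, under the skin as newborns and a high-fat diet after weaning, a model in which diabetes, fatty liver disease and liver tumours develop, and had no insulin. STAM-INS mice had the same streptozotocin and diet and were also given the long-acting insulin glargine under the skin as adults until the tissue was taken. Normal mice were lean mice, on chow by the study's general methods, with neither agent, so that drug, diet and disease all separate them from both STAM groups. All Normal arrays were also on another slide than the STAM arrays, and slide and group cannot be told apart in comparisons with Normal mice. All 10 hepatocyte markers were well above background on all 9 arrays, and no pancreas marker was tested because none was well above background throughout a group. In whole liver, fewer cells of a type and less RNA per cell cannot be told apart. The paper reports visible liver tumours in STAM mice at this age, and fewer of them with insulin. Its array methods do not say whether tumour tissue was left out, and the tumour content of the samples was not tested. The share of spots well above background was 46.2% to 51.1% on 6 arrays, and 59.3%, 63.1% and 65.0% on STAM-NON replicate 1, STAM-NON replicate 3 and STAM-INS replicate 1.

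The promoters of the 9 genes were read for retinoic acid response elements, because Cyp26a1 and Rarb are known targets of the receptors. The search covered 13 RefSeq windows, at least 1 for each of the 9 genes, of the assembly GRCm38.p6, each with 250 bases before and 50 after a transcript start, and sought a pair of half-sites in the same orientation, each AGGTCA with G also allowed at the first and T at the third base, with 5, 2 or 1 bases between them, on both strands. A repeat with a 5-base spacer was found in Rarb and in Cyp26a1 and in no other member. Such a repeat was found in 32 of 32851 windows of the same length (0.0974%), while spacers of 2 and 1 bases, found in no member, occurred in 0.268% and 0.222%. Of the 49 further retinoid genes of a wider list, 37 had a window, and 1, Bco1, held a repeat, with a 1-base spacer. The 250 bases before each start follow in the direction of the gene, with the repeat in capitals. The Rarb stretch is chr14:16575477-16575726 on the minus strand and the Cyp26a1 stretch is chr19:37697558-37697807 on the plus strand.
Rarb: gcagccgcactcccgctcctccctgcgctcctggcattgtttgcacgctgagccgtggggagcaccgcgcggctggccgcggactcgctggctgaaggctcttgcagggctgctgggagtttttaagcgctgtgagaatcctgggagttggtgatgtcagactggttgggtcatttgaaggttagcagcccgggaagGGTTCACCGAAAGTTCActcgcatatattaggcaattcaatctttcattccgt
Cyp26a1: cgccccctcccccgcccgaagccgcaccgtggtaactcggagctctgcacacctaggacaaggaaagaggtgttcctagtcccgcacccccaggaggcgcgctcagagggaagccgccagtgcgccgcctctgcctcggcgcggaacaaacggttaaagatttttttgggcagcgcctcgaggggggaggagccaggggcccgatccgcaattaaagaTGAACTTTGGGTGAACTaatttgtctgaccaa
In Rarb the repeat lay on the strand of the gene, from base -53 to base -37 relative to the start. In Cyp26a1 it lay from -32 to -16, on the opposite strand, where it reads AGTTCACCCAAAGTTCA. A match of letters is a description and does not show that a receptor was bound there in these livers. Cyp26a1 and Rarb were known targets beforehand, so their repeats and the share over all windows are not read as a test.

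Levels are given as centred log2 signal, which is the log2 of the background-subtracted signal set against that array's own 75th percentile, so that 1 unit is a doubling and a value compares samples for 1 probe only. Differences carry the standard error (SE) of the limma fit. Called means an adjusted p under 0.05 with limma over all tested probes.

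Cyp26a1 was 2.27, 3.63 and 2.03 in the 3 Normal mice. It was -1.70, -1.54 and -2.30 in the STAM-NON mice and 0.10, -1.38 and -1.42 in the STAM-INS mice. The lowest Normal mouse was thus above the highest STAM mouse, and all 9 arrays read the probe well above background. The difference from Normal mice was -4.49 ± 0.52 (SE, n = 3 each) in STAM-NON and -3.55 ± 0.52 in STAM-INS. The first of these differences chose the gene, and neither is used as support. Under the alternative settings the difference lay between -5.99 and -3.55 in STAM-NON and between -4.05 and -3.02 in STAM-INS. Cyp26b1, the second retinoic acid hydroxylase of the family, did not show this pattern. It was 3.04, 0.13 and 1.17 in Normal, 1.51, 1.65 and 1.33 in STAM-NON and -0.44, 1.54 and 1.94 in STAM-INS mice. The Normal mice spanned the whole range of STAM-NON mice, and the differences from Normal were 0.05 ± 0.78 in STAM-NON and -0.43 ± 0.78 in STAM-INS.

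**Figure D1:**
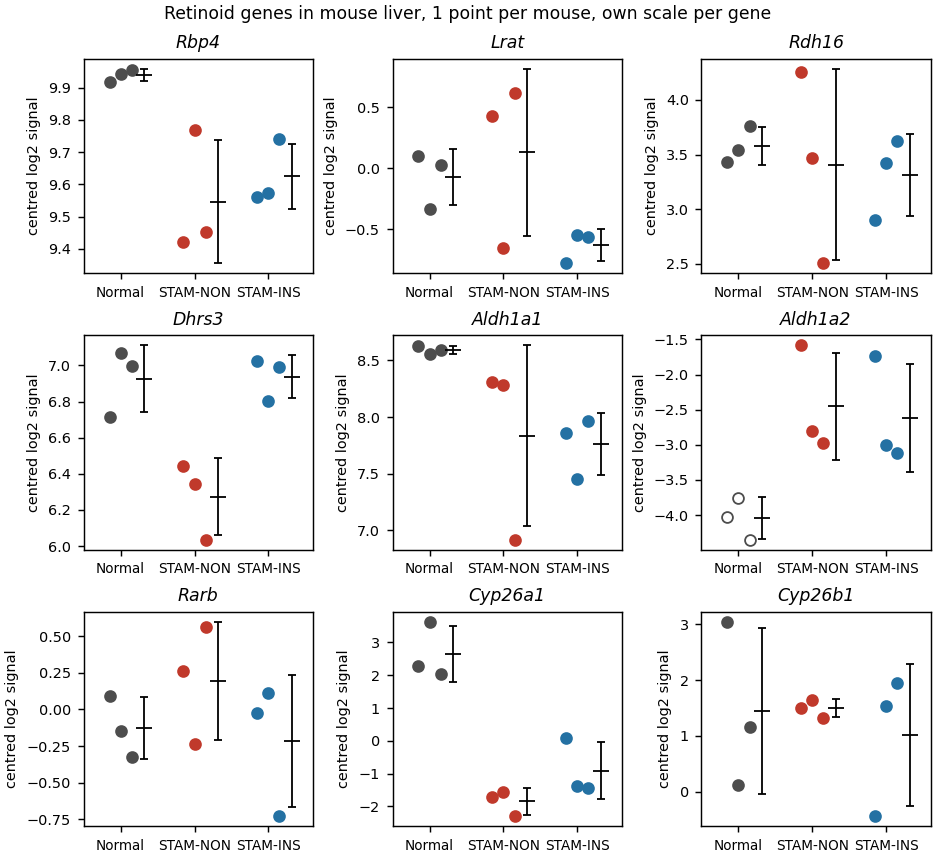
Centred log2 signal (vertical axis, own range for each gene) of the 9 retinoid genes in the 3 Normal, 3 STAM-NON and 3 STAM-INS mice. Each circle is 1 mouse, open where the probe was not well above background, and the bar beside each group is the mean with the SD; Cyp26a1 in the 3 Normal mice, at 2.03 to 3.63, sits above all 6 STAM mice, while Cyp26b1 overlaps between all groups.

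Among the genes of transport and storage, Rbp4, which encodes the plasma carrier of retinol secreted by hepatocytes, was 9.92, 9.94 and 9.96 in Normal mice. It was 9.42, 9.77 and 9.45 in STAM-NON and 9.56, 9.57 and 9.74 in STAM-INS mice. All 6 STAM mice were below the 3 Normal mice, by a mean of -0.39 ± 0.12 in STAM-NON and -0.31 ± 0.12 in STAM-INS, or 1.31-fold and 1.24-fold. Lrat, the enzyme that esterifies retinol for storage and is typical of stellate cells, was 0.10, -0.34 and 0.03 in Normal mice. It was 0.43, -0.65 and 0.61 in STAM-NON and -0.78, -0.55 and -0.56 in STAM-INS mice. Normal and STAM-NON mice overlapped, with a difference of 0.20 ± 0.31, and the STAM-INS mice lay below the Normal mice by -0.56 ± 0.31. The summed level of 11 tested markers of quiescent stellate cells, on the linear scale, was 147 to 171 in Normal, 153 to 214 in STAM-NON and 113 to 146 in STAM-INS mice. Of these 11 markers, each read by its brightest probe, 0 were called in any of the 3 comparisons (limma). Over all genes 16.8%, 0.0822% and 13.6% were called in STAM-NON against Normal, STAM-INS against STAM-NON and STAM-INS against Normal. In that order 4, 3 and 2 of the markers had an unadjusted p under 0.05 (limma). A dimmer probe of Ecm1 was called lower in STAM-INS against Normal, at -1.02 (adjusted p = 0.0359, limma). The twelfth marker, Gfap, was not tested because its probes were not well above background throughout a group. Dcn and Ecm1, the brightest of the 11, weighed most in the sum, and the single markers did not all follow it. In STAM-INS against STAM-NON 9 of the 11 were below 0, with a median difference of -0.39, but in STAM-INS against Normal 6 were above and 5 below 0, with a median of 0.14, and in STAM-NON against Normal 7 were above 0, with a median of 0.51. The part of the stellate markers in the Lrat values was not tested.

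Retinol and retinal are converted into each other by dehydrogenases and reductases. Rdh16, which oxidises retinol to retinal, was 3.43, 3.54 and 3.77 in Normal, 4.25, 3.47 and 2.51 in STAM-NON and 2.90, 3.42 and 3.63 in STAM-INS mice. The groups overlapped, and the differences from Normal mice were -0.17 ± 0.40 and -0.26 ± 0.40. Dhrs3, which reduces retinal back to retinol and is itself induced by retinoic acid, was 6.72, 7.07 and 7.00 in Normal mice. It was 6.44, 6.34 and 6.03 in STAM-NON and 7.02, 6.80 and 6.99 in STAM-INS mice. The 3 STAM-NON mice were below all 6 other mice. The difference from Normal was -0.65 ± 0.15 in STAM-NON (1.57-fold lower) and 0.01 ± 0.15 in STAM-INS, and the latter took either sign under other scalings, from -0.17 to 0.22.

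The 2 retinal dehydrogenases among the members, which make retinoic acid, had differences of opposite sign from Normal mice. Aldh1a1, the main form in hepatocytes, was 8.63, 8.56 and 8.60 in Normal mice. It was 8.31, 8.29 and 6.91 in STAM-NON and 7.86, 7.45 and 7.97 in STAM-INS mice. All 6 STAM mice were below the Normal mice, with differences of -0.76 ± 0.35 and -0.84 ± 0.35, and the STAM-NON value was -0.30 without STAM-NON replicate 3, the lowest mouse. Aldh1a7 is a close copy of Aldh1a1, and whether the probe reads both was not tested. Aldh1a2, a form found in non-parenchymal cells, could not be told from background in any Normal mouse, where its signal was -4.02, -3.76 and -4.35. It was well above background on all 6 STAM arrays, at -1.58, -2.81 and -2.97 in STAM-NON and -1.73, -3.00 and -3.11 in STAM-INS mice. Against a floor set for the Normal mice, its processed signal was higher by 2.62-fold in STAM-NON and by 2.35-fold in STAM-INS. For these bounds, each Normal array was taken at the lowest signal of any probe well above background there. The probe's own signal was used where it was higher. That was so on Normal replicate 2, where -3.76 was not well above background although the lowest such signal of any probe was -3.93. The floor is thus not this probe's limit of detection, and the bounds are not strict. With a normexp background correction the measured differences shrank from 1.59 to 0.36 in STAM-NON and from 1.43 to 0.35 in STAM-INS. Those values are below the bounds, which are 1.39 and 1.23 on the log2 scale and hold for the processed signal only. Some lists of markers of other cells were higher in STAM mice too, and others were not. The summed level of 5 tested macrophage markers was 90.0 to 134 in Normal, 169 to 282 in STAM-NON and 140 to 301 in STAM-INS mice. That of 4 bile duct markers was 1.52 to 2.74, 3.59 to 8.97 and 3.36 to 5.35. Spp1, the brightest of the 4, weighed most in it, with means of 0.46 in Normal, 1.97 in STAM-NON and 1.67 in STAM-INS mice. All 4 were above 0 against Normal mice in both STAM groups, but the groups overlapped for Krt19. For 8 markers of activated stellate cells the summed level was 12.9 to 22.2, 26.4 to 44.8 and 16.8 to 34.7, so that Normal and STAM-INS mice overlapped. For 6 endothelial markers it was 68.5 to 76.2, 53.2 to 74.2 and 38.2 to 73.4. The part of these lists in the Aldh1a2 values was not tested.

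Rarb encodes a retinoic acid receptor and, like Cyp26a1, is a known target of retinoic acid with the repeat in its promoter. The brighter of its probes read 0.10, -0.15 and -0.32 in Normal, 0.26, -0.24 and 0.56 in STAM-NON and -0.02, 0.11 and -0.73 in STAM-INS mice. The groups overlapped, with differences from Normal of 0.32 ± 0.27 in STAM-NON and -0.09 ± 0.27 in STAM-INS. The dimmer probe gave 0.10 ± 0.25 and -0.20 ± 0.25. The low level of Cyp26a1 in STAM mice was not seen in Rarb on either probe, and the cause of that low level was not tested.

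Over the 9 genes, 3 were called in STAM-NON against Normal, Aldh1a2 higher and Cyp26a1 and Dhrs3 lower, where 16.8% of all 13386 genes were called (7.87% higher and 8.93% lower). In STAM-INS against Normal 1 was called, Cyp26a1 lower, where 13.6% of genes were called (6.15% higher and 7.49% lower). Nothing is read from these counts, since the first contrast chose the genes and the second shares its Normal arrays. The median difference over the 9 genes was -0.17 in STAM-NON and -0.31 in STAM-INS, beside -0.11 and -0.07 over all tested genes. The choice of scaling moved the median of all tested probes in STAM-NON against Normal between -0.30 and 0.03, and small differences should be read against that shift. Of the 3 calls in STAM-NON, that of Dhrs3 was lost under 11 of 22 alternative settings and that of Aldh1a2 under 16 of 21, and that of Cyp26a1 was lost with slide row as a block.

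The comparison of STAM-INS with STAM-NON mice asked whether insulin treatment altered these genes in STAM liver. None of the 9 was called (0 with limma, 2 at an unadjusted p under 0.05, which were Dhrs3 and Lrat), and over all genes 0.0822% were called. Dhrs3 had the lowest adjusted p of the members, at 0.318. It was higher in STAM-INS by 0.67 ± 0.15, with a 95% interval of 0.32 to 1.01, and the highest STAM-NON mouse, at 6.44, was below the lowest STAM-INS mouse, at 6.80. For Cyp26a1 the difference was 0.94 ± 0.52 with a 95% interval of -0.24 to 2.13 (adjusted p = 0.637, limma), so that both no change and a rise of 2 log2 units lay inside the interval. The 3 STAM-INS mice were all above the 3 STAM-NON mice, but by little for 2 of them. STAM-INS replicate 1, at 0.10, stood apart, and without it the difference was 0.45. Without this array and STAM-NON replicates 1 and 3, the 3 arrays with the most spots well above background, it was 0.14. That array lay in the same row of the slide as the 3 STAM-NON arrays, and within this row its difference from them was 1.94 for Cyp26a1 and 0.75 for Dhrs3. STAM-INS replicates 2 and 3 lay in row 2 of that slide and the 3 Normal arrays in row 2 of the other slide, so that they shared a row number but no slide, and they differed by -4.05 for Cyp26a1 and -0.03 for Dhrs3. Lrat was lower in STAM-INS by -0.76 ± 0.31 (95% interval -1.46 to -0.06, adjusted p = 0.544, limma), with STAM-NON replicate 2, at -0.65, inside the range of the STAM-INS mice. For the other 6 genes the intervals included 0, and the differences ran from -0.48 for Cyp26b1 to 0.08 for Rbp4. The width of these intervals means that the data do not show the groups to be alike.

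**Figure D2:**
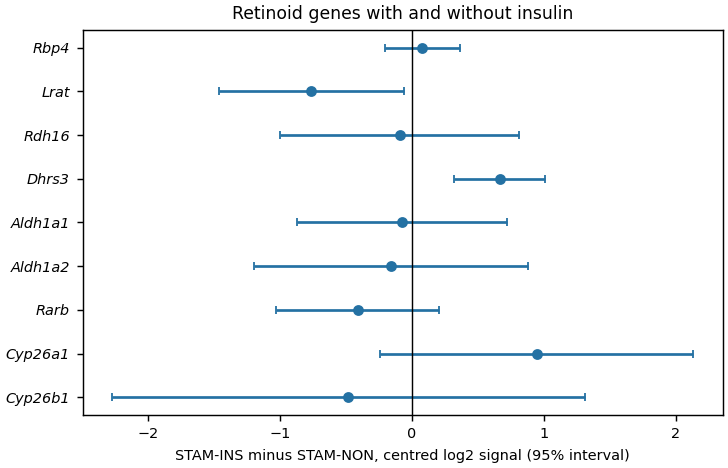
Difference between STAM-INS and STAM-NON mice in centred log2 signal (horizontal axis; points are differences of means of 3 mice each, bars the 95% interval from limma) for the 9 retinoid genes. The intervals of Dhrs3 (0.32 to 1.01) and Lrat (-1.46 to -0.06) leave out 0 before adjustment, and that of Cyp26a1 runs from -0.24 to 2.13.

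A wider list of 49 retinoid genes, chosen for their roles but with earlier results of these data known, was then read with the full test in each comparison, and 43 of them passed the filter on dim probes. In STAM-NON against Normal 10 of the 43 were called (23.3%, beside 16.8% of all genes), with 1 higher and 9 lower, or 2 higher and 4 lower with centring on the E1A spike-ins. In STAM-INS against Normal 11 were called, with 3 higher and 8 lower (25.6% beside 13.6%), or 4 higher and 5 lower with E1A centring. In STAM-INS against STAM-NON limma called 0, with 4 at an unadjusted p under 0.05 and a lowest adjusted p of 0.333. The median difference of the 43 genes was -0.30, -0.28 and 0.06 in these comparisons, beside -0.11, -0.07 and 0.03 over all genes. The counts depended on single arrays, as did those over all probes. In STAM-NON against Normal the count was 5 without STAM-NON replicate 1, 5 without Normal replicate 1 and 3 without Normal replicate 2 or without Normal replicate 3. The 4220 calls over all probes became 1537, 1154, 1111 and 940 in these fits. In STAM-INS against Normal the list count was 7 without STAM-INS replicate 1, 3 without STAM-INS replicate 2 and 7 without STAM-INS replicate 3. It was 5, 7 and 4 without Normal replicates 1, 2 and 3. The 3647 calls over all probes became 2193, 1038, 1893, 1418, 1506 and 1222 in these fits. In STAM-INS against STAM-NON the list count was 1 without STAM-NON replicate 3. Without the 3 arrays that had the most spots well above background, an alternative chosen after the data were seen, the count in STAM-NON against Normal was 4, with 1 higher and 3 lower.

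Retinoic acid clearance had 1 tested gene beside the members. Cyp2c39, a mouse liver cytochrome P450 that hydroxylates retinoic acid, was 5.66, 5.88 and 5.81 in Normal, 3.59, 4.36 and 3.62 in STAM-NON and 3.72, 4.14 and 4.19 in STAM-INS mice. All 6 STAM mice were below the Normal mice, and Cyp2c39 fell by 1.93 on the log2 scale in STAM-NON (SE 0.23, adjusted p = 0.00486, limma) and by 1.77 in STAM-INS (SE 0.23, adjusted p = 0.00395). The Cyp2c genes are close copies of each other, and cross-hybridisation was not tested. Cyp26c1, the remaining gene of the Cyp26 family, was not well above background on any array.

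Retinal oxidation had 5 tested genes, of which 1 was called. Aox3, an aldehyde oxidase of liver that can oxidise retinal, was 4.66, 4.68 and 4.92 in Normal, 2.55, 3.50 and 2.78 in STAM-NON and 3.51, 3.09 and 3.56 in STAM-INS mice. It fell by 1.81 in STAM-NON (SE 0.25, adjusted p = 0.00765, limma) and by 1.37 in STAM-INS (SE 0.25, adjusted p = 0.0130). The STAM and Normal mice did not overlap. The STAM-INS call was lost without STAM-INS replicate 2 (difference -1.22), without Normal replicate 3 (-1.28) and with no filter on dim probes. The STAM-NON calls of Aox3, Cyp2c39 and Rdh1 were lost with slide row as a block, and that of Aox3 also without the 3 arrays with the most spots well above background.

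Among 17 tested genes that convert retinol and retinal, 5 were called in STAM-NON (1 higher, 4 lower) and 7 in STAM-INS (2 higher, 5 lower) against Normal mice. Over all genes 16.8% were called in STAM-NON (7.87% higher, 8.93% lower) and 13.6% in STAM-INS (6.15% higher, 7.49% lower). The same shares stand beside the counts of the other roles, and nothing is read from the count of a single role. Rdh1, a retinol dehydrogenase, was 0.81, 0.74 and 0.72 in Normal, -0.91, -0.37 and -0.57 in STAM-NON and -0.90, -0.86 and -1.07 in STAM-INS mice. It fell by 1.37 in STAM-NON (SE 0.15, adjusted p = 0.00402, limma) and by 1.70 in STAM-INS (SE 0.15, adjusted p = 0.00173), with no overlap with the Normal mice. Rdh7, of the same gene cluster, fell by 0.95 (SE 0.17, adjusted p = 0.0148, limma) in STAM-NON and by 0.62 (SE 0.17, adjusted p = 0.0461) in STAM-INS. Rdh12 and Rdh19 were lower in both as well, by -0.37 and -0.65 in STAM-NON and by -0.53 and -0.74 in STAM-INS, with adjusted p between 0.0190 and 0.0491 (limma), although Rdh19 was well above background on 2 of 3 STAM-INS arrays. In STAM-NON these calls were lost under 19 of 22 alternatives for Rdh12, 16 of 21 for Rdh19 and 5 of 22 for Rdh7, and in STAM-INS under 10 of 22, 15 of 21 and 13 of 22. Dhrs4, a retinal reductase, fell by 0.97 in STAM-INS (adjusted p = 0.0231, limma), a call lost under 8 of 22 alternatives, where Rdh11, another retinal reductase, rose by 1.27 ± 0.23 (SE, adjusted p = 0.0120). Rdh11 was 1.94, 1.81 and 1.77 in Normal, 1.97, 1.86 and 2.66 in STAM-NON and 3.32, 3.21 and 2.81 in STAM-INS mice, and its STAM-INS call was lost without STAM-INS replicate 2 (difference 1.22) and with no filter on dim probes. Dhrs9, a retinol dehydrogenase, was well above background on all 6 STAM arrays and on none of the 3 Normal arrays. Its signal was -4.04, -5.45 and -5.70 in Normal, -2.61, -2.52 and -3.53 in STAM-NON and -0.97, -1.24 and -1.22 in STAM-INS mice. Against the same kind of floor for the Normal mice, it was higher by 2.02-fold in STAM-NON and by 6.76-fold in STAM-INS. These bounds are not strict either. Dhrs9 passed the filter on dim probes through the STAM arrays alone. Its calls against Normal mice are therefore counted but not read as a test, and no p is given. The STAM-NON call was lost under 7 of 21 alternatives, among them those without STAM-NON replicate 1, Normal replicate 2 or Normal replicate 3 (fitted differences of 2.04, 1.99 and 1.86), and the STAM-INS call under 0 of 21. With the normexp background correction the fitted differences were 0.42 and 1.26, below these bounds, which hold for the processed signal only. The 3 STAM-INS mice were above the 3 STAM-NON mice by 1.74 ± 0.43 (SE), which was not called (adjusted p = 0.373, limma). The Rdh genes of this cluster, Rdh16 among them, are close copies, and whether a probe reads more than 1 of them was not tested.

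**Figure D3:**
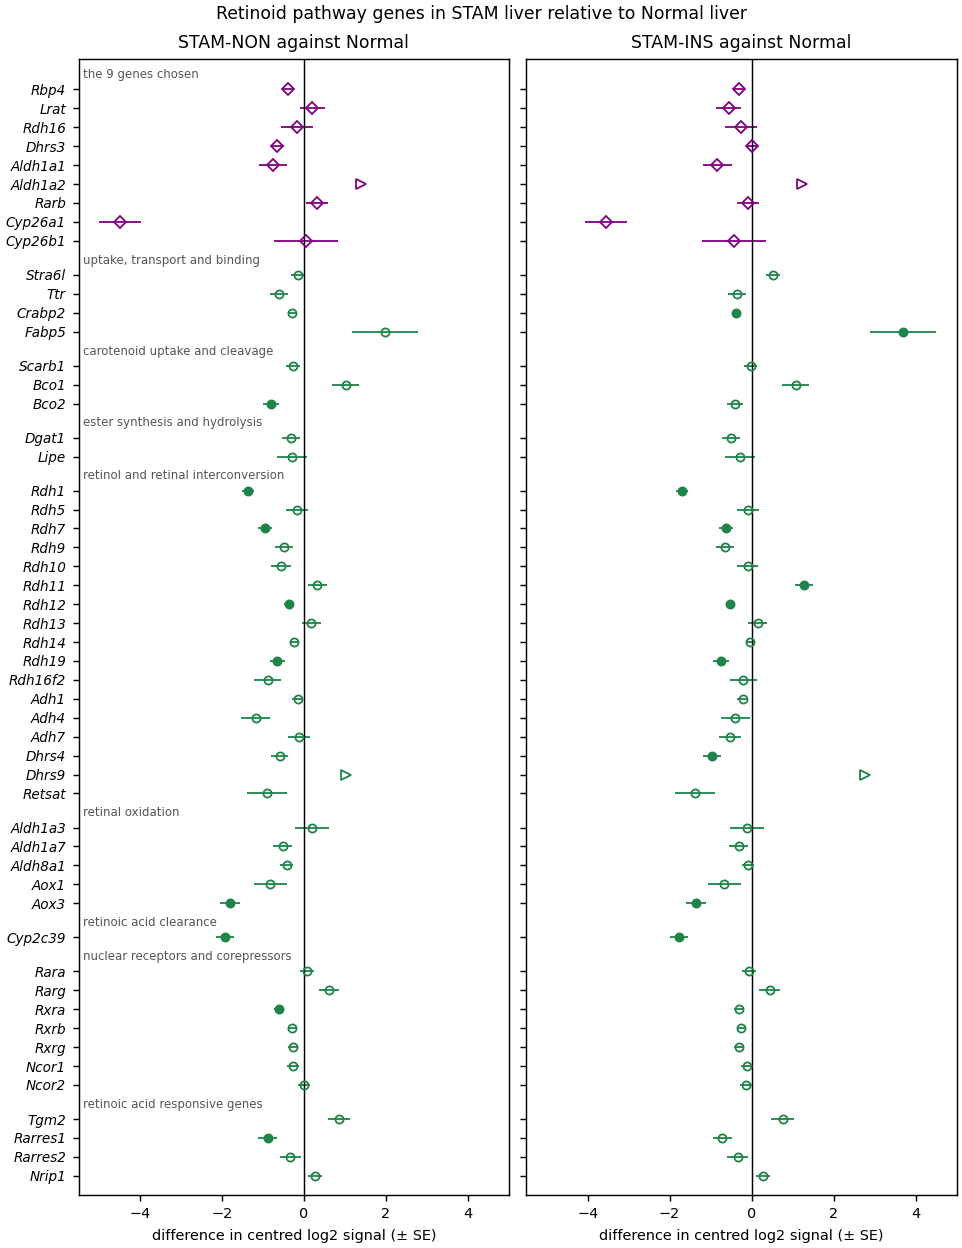
Differences in centred log2 signal (horizontal axis, ± SE, 3 mice against 3) of STAM-NON and of STAM-INS from Normal mice, for the 9 chosen genes (open diamonds, no test) and 43 further retinoid genes by role (circles, filled where the limma adjusted p was under 0.05). Arrowheads without an error bar mark the bound against the floor set for Normal mice, for the processed signal only, of Aldh1a2 and Dhrs9. Both were not well above background in any Normal mouse (bounds of 1.01 and 2.76 for Dhrs9). Cyp26a1 lies at -4.49 and -3.55, and Cyp2c39, Aox3 and Rdh1 lie below -1.3 in both panels.

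Of 4 tested genes of uptake, transport and binding, 0 were called in STAM-NON against Normal (limma) and 2 in STAM-INS against Normal. Fabp5, a fatty acid binding protein that also carries retinoic acid, was 3.28, 3.57 and 2.76 in Normal, 4.64, 3.69 and 7.23 in STAM-NON and 6.26, 7.67 and 6.78 in STAM-INS mice. It rose by 3.70 ± 0.80 in STAM-INS (SE, adjusted p = 0.0233, limma). The difference in STAM-NON was 1.98 ± 0.80 (adjusted p = 0.118), with STAM-NON replicate 3 far above the other 2. The Fabp5 call was lost without any 1 of the 3 Normal replicates or of STAM-INS replicates 2 and 3, at differences of 3.32 to 4.02. Crabp2, which carries retinoic acid to its receptors, fell by 0.38 in STAM-INS (SE 0.10, adjusted p = 0.0390, limma), a call lost under 14 of 22 alternatives. Among the 3 carotenoid genes Bco2, which cleaves carotenoids, fell by 0.81 in STAM-NON (SE 0.20, adjusted p = 0.0320, limma), a call lost under 13 of 22 alternatives.

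Of 7 nuclear receptor and corepressor genes, 1 was called, Rxra in STAM-NON against Normal, and its probes disagreed. Rxra is the common partner of the retinoic acid receptors. The brighter probe was lower by -0.61 ± 0.13 (SE, adjusted p = 0.0219, limma) and the dimmer probe differed by 0.01 ± 0.16 (adjusted p = 0.971). Among 4 tested genes that respond to retinoic acid, Rarres1 fell by 0.89 in STAM-NON (SE 0.23, adjusted p = 0.0391, limma), a call lost under 12 of 22 alternatives, and none was called higher. Tgm2, which encodes a transglutaminase induced by retinoic acid, was higher in STAM-NON by 0.85 but was not called. Its STAM-NON mice, at 5.32 to 6.14, did not overlap the Normal mice, at 4.76 to 4.99. Against Normal mice 0 of the 4 genes were called in STAM-INS (limma). The lowest of the 4 there was Rarres1, at -0.72 ± 0.23 (SE, adjusted p = 0.0743, limma), and the highest was Tgm2, at 0.75 ± 0.27 (adjusted p = 0.0968).

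Of all tested genes with a symbol, the 5 whose profile over the 9 arrays was most like that of Cyp26a1 were Gm4956, Olfr173, Nat8, Trhde and 4930550L24Rik. Likeness was the root mean square difference on the log2 scale, after each gene was set relative to its own Normal mean, and it was 0.756 for Gm4956 and 0.866 for Nat8, which like Cyp26a1 were well above background on all 9 arrays. Olfr173, Trhde and 4930550L24Rik were well above background on all 3 Normal arrays but on 0 of 6 STAM arrays, so that their STAM values are background readings and the size of their likeness to Cyp26a1 is not given. The Normal mice ranged from -0.61 to 0.99 around their mean for Cyp26a1 and from -0.27 to 0.23 for Gm4956. STAM-NON mice ranged from -4.94 to -4.19 for Cyp26a1 and from -4.91 to -3.36 for Gm4956, and STAM-INS mice from -4.07 to -2.55 and from -4.57 to -2.38. For each of the 5 genes, all 6 STAM mice were below the Normal mice. The choice by likeness to Cyp26a1 favoured this in advance, so it is no support. The list follows from the values of the 9 arrays alone and gets no test.

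**Figure D4:**
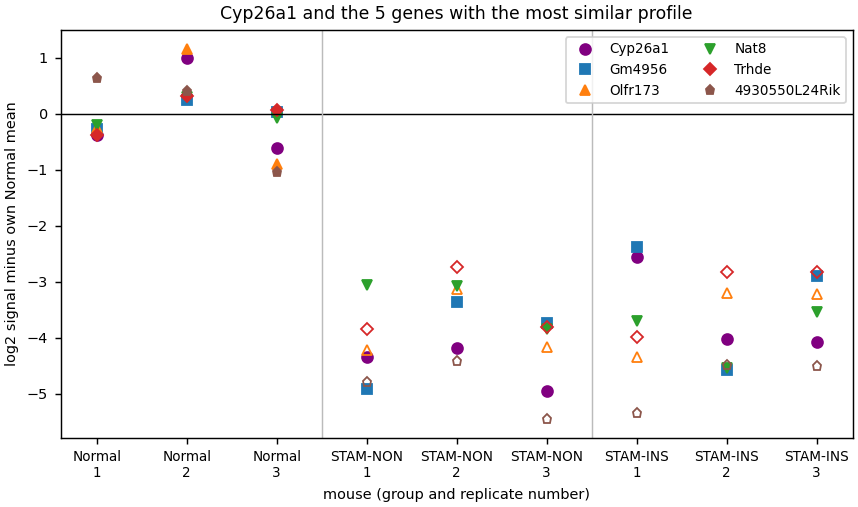
Log2 signal minus the own Normal mean (vertical axis) of Cyp26a1 (circles) and of the 5 genes with the smallest root mean square difference from it, for each of the 9 mice (horizontal axis, by group and replicate number); symbols are open where the probe was not well above background. Gm4956 and Nat8 are filled throughout, while Olfr173, Trhde and 4930550L24Rik are open in all 6 STAM mice.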

How the data were processed

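Liver RNA of 9 mice was hybridised to 1-colour Agilent arrays (SurePrint G3 Mouse GE 8x60K, Cy3). The authors deposited scanner output of Feature Extraction 11.5.1.1, per the file headers: linear spot intensity after background subtraction, median spot and background intensity, and flags, not normalised between arrays. The methods name no normalisation or test. The labels and the methods name different RNA kits. The array design used mm9, and probes were named through RefSeq (GRCm38.p6), with no coordinates taken from it except those of the printed promoters.

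Log2 of the processed signal was centred on the 75th percentile of each array's 59305 non-control spots, and the spots of a probe were averaged without outlier-flagged spots. Tested were the 26278 probes that had a value on every array and that, on all 3 arrays of some group, had a share of at least 0.5 of spots well above background. Comparisons used the R (4.3.3) package limma 3.58.1 (lmFit, eBayes, two-sided, all 9 arrays, 6 residual degrees of freedom), with Benjamini-Hochberg adjustment over all tested probes and a threshold of 0.05. Each gene was read by its tested probe of highest mean. An exact permutation test of 3 mice against 3 cannot give p below 0.1. Summed marker levels are sums of 2 to the power of the centred values, so that the brightest probes weigh most. The number of arrays limits the precision.

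The members and lists were chosen with earlier results of these data known. All 9 members are named, the called genes of the wider list by size (up to 6 per comparison, and more where a count of 5 or fewer needed them), and the 5 genes nearest Cyp26a1. Some genes of the wider list are not reported here. The endothelial list (6 tested) had 1 gene called, higher in STAM-NON against Normal. The hepatocyte list (10 tested) had 1 gene lower in each comparison with Normal mice, with a summed level of 5634 to 5895 in Normal, 4432 to 5780 in STAM-NON and 5710 to 6504 in STAM-INS mice. Alternatives were other scalings, background correction, filters, fits, blocks, probes and leaving out arrays. Because the files hold no mean spot signal, the normexp correction (offset 50) used the median signal. The fit was tested on simulated data.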

Additional observations from a re-analysis of the deposited data

Results flagged for a closer look

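A retinoid probe outside the tests read above background in STAM liver and on none of the 3 Normal arrays. The probe of Rbp7, a cellular retinol binding protein, was well above background on 4 of 6 STAM arrays (2 in each group). It ran from -4.80 to -2.71 in STAM-NON, from -5.28 to -3.27 in STAM-INS and from -6.05 to -5.62 in Normal mice.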

How the results depend on the processing

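For the 9 genes, 3 were called in STAM-NON against Normal, but 1 with quantile normalisation, with E1A spike-in centring, with no filter on dim probes, with only the 2 groups in the fit or without the 3 arrays with the most spots well above background, and 0 with slide row as a block. Leaving out 1 array gave 1 to 3. In STAM-INS against Normal the count of 1 became 4 with only the 2 groups in the fit and 3 without those 3 arrays, and leaving out 1 array gave 1 to 2. In STAM-INS against STAM-NON it was 0 under all 22 alternatives. For the wider list, the 10 calls in STAM-NON against Normal became 6 with the percentile over detected probes, 6 with E1A centring (2 higher, 4 lower, against 1 and 9), 3 with no filter, 4 without the 3 arrays and 0 with slide row as a block, and leaving out 1 array gave 3 to 14. The 11 calls in STAM-INS against Normal became 3 with no filter and 7 with slide row as a block, and leaving out 1 array gave 3 to 13. The 0 calls in STAM-INS against STAM-NON became 1 without the 3 arrays, and leaving out 1 array gave 0 to 1. The Rxra difference in STAM-NON against Normal turned from -0.61 to 0.0095 with the dimmer probe. Over all probes, 4220 calls in STAM-NON against Normal became 2650 with median centring, 2289 with E1A centring, 250 with no filter, 2180 with 2 groups in the fit, 15 with slide row as a block, 850 without the 3 arrays and 940 to 5817 without 1 array. The 24 calls in STAM-INS against STAM-NON became 7 with no filter, 6 with probes detected on all arrays, 8 with 2 groups, 13 with slide row, 567 without the 3 arrays and 10 to 105 without 1 array. The 3647 calls in STAM-INS against Normal became 2128 with E1A centring, 572 with no filter, 2157 with slide row and 1038 to 4326 without 1 array. Rows were numbered alike on both slides. Where slide row is a block, STAM-NON and Normal share no row and are compared through STAM-INS alone. For the other changes the cause was not tested.

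Replicate numbers did not pair the mice: deviations of same-numbered arrays correlated between -0.29 and 0.15, with 1 of 9 pairs over 0.1. With the replicate block, counts for the 9 genes were 2 in STAM-NON against Normal and 2 in STAM-INS against Normal, counts for the wider list were 6 and 5, and those over all probes were 2016, 6 for STAM-INS against STAM-NON, and 1872.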
